A study of Drosophila melanogaster with 3 samples.

Results

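The 189 regions described here are the intergenic part of a chromatin immunoprecipitation sequencing (ChIP-seq) map of Insensitive, the product of the insv gene, in Drosophila melanogaster embryos. They were selected on their pooled signal, as part of the 1500 regions with the highest signal in the pooled list of 30000 regions. A region was kept when its summit lay over 500 bp from every protein-coding transcript start and inside no protein-coding gene. The 189 make up 12.6% of the 1500 (Wilson 95% interval 11.0 to 14.4%), beside 754 regions within 500 bp of a start and 557 inside a coding gene. Members were chosen by pooled signal and position, so both are given as descriptions, with no test. The regions are intergenic with respect to coding genes only, and 33 of them lie inside annotated non-coding genes.

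All samples belong to 1 group, with 3 biological replicates and no second condition. The embryos were 0 to 24 h old, of both sexes, from the transgenic strain insv-GFP, which stably expresses insv carrying GFP at its C terminus. The tagged protein was precipitated with an antibody against GFP after sonication of the chromatin, with a size range given as 200 to 800. Whole embryos were used, so a region cannot be assigned to a cell type or stage, and whether the line also carries untagged insv is not stated.

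Insensitive binds DNA through a BEN domain and acts as a co-repressor in nervous system development, where Notch target genes are among those it represses. It is related to the BEN proteins of the Elba complex, which was found through its binding to the Fab-7 boundary, an insulator between regulatory domains of the Hox gene Abd-B in the bithorax complex. Intergenic DNA of the fly holds enhancers, insulators and the transcription units of long non-coding RNAs and microRNAs.

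Sequence was not used to choose the members. Sequences are shown for the 3 members with the highest signal, whatever their motifs. The others were picked for printing because they hold a motif of this protein family, so its presence there is by choice. All sequences are the plus strand of the RefSeq release 6 genome (dm6). Capitals mark CCAATTGG, the palindrome known for the Insensitive BEN domain, or CCAATAAG, the Elba site of Fab-7 (CTTATTGG where it lies on the minus strand). In the second sequence they mark CAATCAGA, an 8-mer taken from earlier results of these data (TCTGATTG on the minus strand). The first 3 sequences are the 101 bp around the summits of the strongest members, named by the coding genes to their left and right. They lie at chr3R:8306424-8306524, chr3R:14656327-14656427 and chr3R:16898532-16898632.
Sgt1 to tex: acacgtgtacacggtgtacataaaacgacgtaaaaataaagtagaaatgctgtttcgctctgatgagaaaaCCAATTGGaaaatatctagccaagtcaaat
l(3)L1231 to CG3505: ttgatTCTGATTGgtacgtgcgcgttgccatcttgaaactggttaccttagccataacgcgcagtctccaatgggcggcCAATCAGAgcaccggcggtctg
MSAmiP to Abd-B: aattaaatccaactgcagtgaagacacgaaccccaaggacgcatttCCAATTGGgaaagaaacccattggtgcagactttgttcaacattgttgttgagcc

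The next 5 sequences surround the palindrome in other members, with 22 bases to each side. They lie at chr2L:15306957-15307008, chr3L:14131887-14131938, chrX:9121630-9121681, chr2L:11956045-11956096 and chr3R:18156724-18156775.
CG15262 to nht: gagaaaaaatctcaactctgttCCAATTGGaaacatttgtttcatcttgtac
Sox21b to D: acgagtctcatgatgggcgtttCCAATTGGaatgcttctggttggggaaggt
AP-1gamma to fend: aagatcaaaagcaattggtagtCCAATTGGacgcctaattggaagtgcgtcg
CG16964 to CG16965: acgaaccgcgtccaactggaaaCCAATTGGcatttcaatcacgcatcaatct
CG14316 to CG14315: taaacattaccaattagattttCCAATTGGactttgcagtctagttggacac

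The member between bun and nub is printed at chr2L:12586822-12586992 because it held 3 copies of the palindrome, spread over 151 bp. No other member held more than 1.
bun to nub: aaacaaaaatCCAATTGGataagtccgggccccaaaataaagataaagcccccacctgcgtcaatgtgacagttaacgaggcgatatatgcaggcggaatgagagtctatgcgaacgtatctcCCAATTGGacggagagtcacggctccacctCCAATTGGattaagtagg

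The last 3 sequences are those of strong members with the Elba site, at chrX:13421156-13421207, chr3L:13228087-13228138 and chr3R:30946691-30946742.
Set2 to Neto: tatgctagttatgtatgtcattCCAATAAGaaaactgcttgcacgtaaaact
snky to caps: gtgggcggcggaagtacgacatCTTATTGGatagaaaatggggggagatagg
CG15550 to CG15548: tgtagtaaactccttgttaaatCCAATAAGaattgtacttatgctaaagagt

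The signal value of each region is the authors' own, on a scale that is not stated, and was used only to rank regions within a list. Sequencing depth is unknown. The pooled signal of the 189 members reached 486.9, with a median of 71.6 and quartiles of 58.8 and 105. Members were 8 of the 100 strongest pooled regions (8%, Wilson 95% interval 4.11 to 15%), 43 of the next 400 (10.8%, 8.08 to 14.2%), 75 of those ranked 501 to 1000 (15%, 12.1 to 18.4%) and 63 of those ranked 1001 to 1500 (12.6%, 9.97 to 15.8%). The intervals overlap throughout. At the lower edge the last members, next to CG11550, AdamTS-B and CG10750, had signals of 53.19, 53.18 and 53.14, and the first regions outside, next to repo, CG33648 and Dr, had 52.85, 52.72 and 52.49.

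The strongest member lay between Sgt1, which encodes a co-chaperone, and tex on 3R, with its summit at 8306474, 1200 bp from the Sgt1 start. Its pooled signal of 486.9 ranked 22 of 30000, and the overlapping regions ranked 44, 14 and 29 in replicates 1, 2 and 3. The second, between the divergently transcribed l(3)L1231 and CG3505 (summit 3R 14656377, 661 bp from the l(3)L1231 start), had a pooled signal of 458.6 and ranked 24 in the pool and 38, 18 and 41 in the replicates. Every replicate placed both within its 44 strongest regions. A second pooled call lay 201 bp from the first summit and another 203 bp from the second, and each was overlapped by the same replicate regions as its neighbour. Such pairs, 9 in all, share their replicate ranks and are not separate measurements. Keeping only the strongest of summits within 500 bp left 180 members.

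The member next in signal lay between MSAmiP and Abd-B, the Hox gene of the posterior abdomen. Its summit was at 3R 16898582, 2289 bp from the start of MSAmiP, with a pooled signal of 409.8 and ranks of 34 in the pool and 45, 31 and 37 in the replicates. The palindrome printed above covered this summit. The space of 30918 bp between MSAmiP and Abd-B held 4 members, all inside lncRNA:iab8 (FBgn0264857, 3R 16831116 to 16923231, minus strand), the host transcript of the iab-8 microRNA. The others had pooled signals of 215.1 (summit 3R 16899526), 167.3 (3R 16919042) and 95.14 (3R 16898784). The first of these ranked 248, 150 and 79 in the replicates and the second 271, 239 and 222, while the last shared the replicate regions of the strongest. Boundary elements are not annotated in the reference used here, so the position of these members relative to Fab-7 was not analysed.

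The next members by signal lay around ftz, a pair-rule homeobox gene within the Antennapedia complex. One was between ftz and Scr, the Hox gene of the labial and anterior thoracic segments (3R 6854520, 4539 bp from the Scr start), with a pooled signal of 344.9 and replicate ranks of 48, 82 and 63. The other lay on the far side of ftz, between it and CG46458 (3R 6870962, 6638 bp from the ftz start), with a pooled signal of 337.8 and replicate ranks of 90, 69 and 38. Every replicate placed both members within its 90 strongest regions.

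Members 6 to 8 by signal were all on the X chromosome. The region between Set2, a histone H3 lysine methyltransferase, and Neto (X 13421203) had a pooled signal of 336.3 and replicate ranks of 78, 84 and 42, and lay 179 bp past the 3′ end of Set2. The region between the convergent genes CG16952 and tay (X 15875750) had a pooled signal of 314.4 and replicate ranks of 113, 76 and 40. It occupied a space of only 760 bp, 143 bp from the end of CG16952. The region between CkIalpha, a casein kinase, and Tis11, an RNA-binding protein that promotes messenger RNA decay (X 12658569), had a pooled signal of 276.1 and replicate ranks of 123, 72 and 161.

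**Figure D1:**
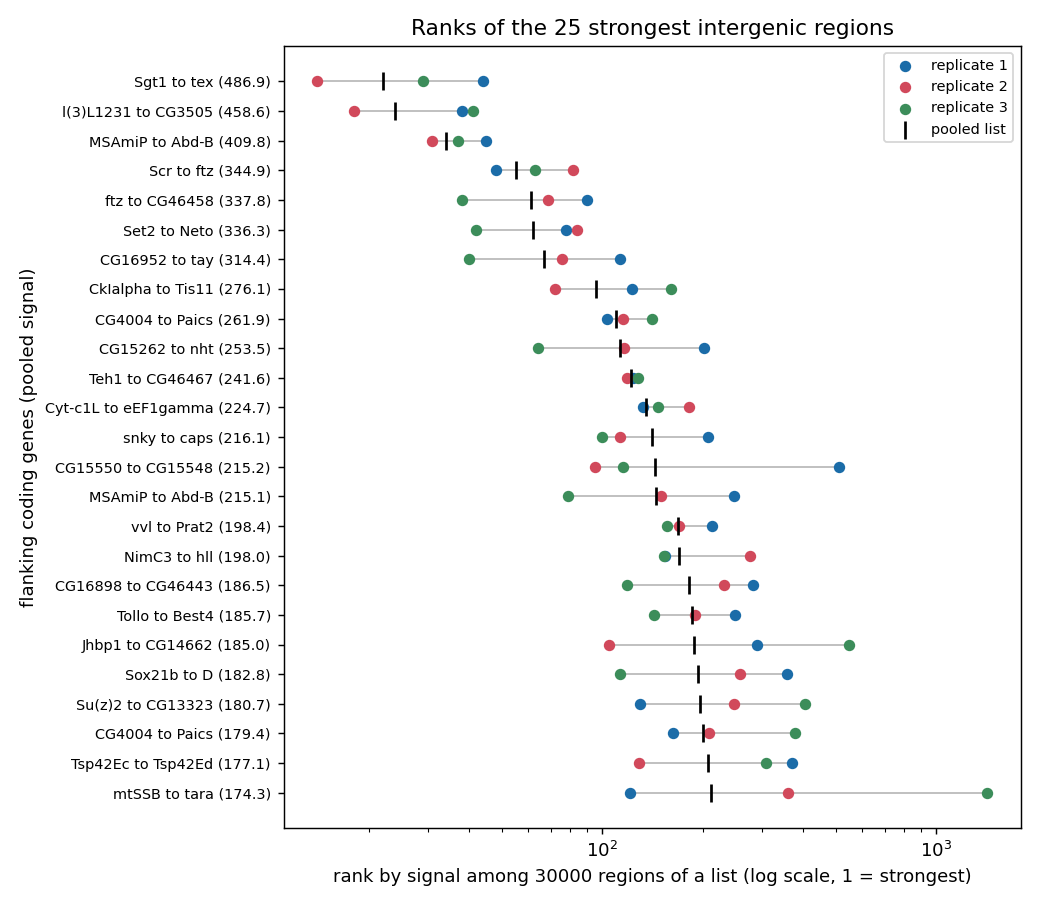
Rank of the 25 strongest intergenic regions, of summits within 500 bp only the strongest, in the list of each replicate (dots) and in the pooled list (black ticks), on a log scale, with the pooled signal beside the flanking genes. The region between Teh1 and CG46467 has its 3 dots closest together (ranks 124, 119 and 128), and that between mtSSB and tara has them farthest apart (121, 361 and 1419).

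Among the 25 strongest members, counting only the strongest of neighbouring summits, every replicate had an overlapping region within its 1500 strongest for all 25, and within its 500 strongest for 22. The exceptions were CG15550 to CG15548 with a rank of 512 in replicate 1, Jhbp1 to CG14662 with 548 in replicate 3 and mtSSB to tara with 1419 in replicate 3. The highest replicate rank of these 25 was a median of 2.31 times the lowest. They held 5 of the 12 members with the palindrome, 3 of the 6 with the Elba site and 5 regions inside a non-coding gene.

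The members ranked 9 to 25 in that group had pooled signals from 261.9 down to 174.3. The region 567 bp from the start of caps, a leucine-rich repeat adhesion protein (3L 13228125), had a signal of 216.1 and replicate ranks of 208, 113 and 100. Another region lay between the Sox transcription factor genes Sox21b, 521 bp away, and Dichaete (D), 43765 bp away on the other side (3L 14131845). It had a signal of 182.8 and replicate ranks of 357, 259 and 113. The region between vvl, a POU-domain transcription factor, and Prat2, an enzyme of purine synthesis (3L 6846008), had a signal of 198.4 and replicate ranks of 213, 170 and 156.

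Other members of this group flanked genes of several kinds. Between CG4004 and Paics, an enzyme of purine synthesis, the signal was 261.9 with replicate ranks of 103, 115 and 141 (X 12751297), and a further call 1071 bp away had 179.4 with ranks of 163, 209 and 377. Between CG15262 and nht, a testis homologue of a TATA-binding-protein-associated factor, it was 253.5 with ranks of 201, 116 and 64 (2L 15307006). Between Tollo, a Toll-family receptor, and Best4 it was 185.7 with ranks of 250, 190 and 143 (3L 15268523). In each of these cases all replicates placed the region within their 377 strongest.

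A region between Su(z)2, a Polycomb group gene 27441 bp away, and CG13323 (2R 13035352) had a signal of 180.7 and replicate ranks of 130, 248 and 404. Other members of the 25 lay between CG16898 and CG46443 (186.5, with ranks of 282, 232 and 119) and between NimC3 and hll (198.0, with ranks of 154, 277 and 153). Between the tetraspanin genes Tsp42Ec and Tsp42Ed the signal was 177.1 with ranks of 371, 129 and 310. The strongest member between Cyt-c1L and eEF1gamma (224.7, with ranks of 132, 182 and 147) also belonged to the 25.

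Weaker members were placed much less evenly by the replicates. A member counted as found in a replicate if any of the 1500 strongest regions there shared 1 bp or more with it. Of the 189 members, 60 were found in every replicate (31.7%, Wilson 95% interval 25.5 to 38.7%), against 40.4% of all 1500 strongest pooled regions. The share was 48.5% (45.0 to 52.1%) of regions within 500 bp of a start and 32.3% (28.6 to 36.3%) of those inside coding genes. In 2 or more replicates 121 were found, in a single replicate 56 and in none 12. The replicates entered the pool, so these counts are not independent of how the members were chosen.

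Replicate 3 recovered the fewest members. Replicate 1 found 125 (66.1%), replicate 2 found 134 (70.9%) and replicate 3 found 99 (52.4%). Its share was also the lowest in the other classes, so this was not particular to the members. Replicates 1, 2 and 3 found 74.0%, 71.4% and 65.6% of regions within 500 bp of a start. Inside coding genes they found 64.8%, 63.7% and 52.4%. The median rank of the region overlapping a member was 937, 851 and 1419 in replicates 1, 2 and 3. For regions inside coding genes it was 885, 950 and 1324. Of the members, 4, 3 and 9 were overlapped by none of that replicate's 30000 regions. Without replicate 3, 90 members were found in both others (47.62%), without replicate 1 there were 83 (43.92%) and without replicate 2 there were 68 (35.98%). Requiring fewer replicates can only raise the count.

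The deposited thresholded list, which is the top of the pooled ranking, held 87 of the 189 members (46.0%, Wilson 95% interval 39.1 to 53.1%), against 48.8% of the 1500. The share was 54.6% among regions within 500 bp of a start and 41.8% among regions in coding genes. Of the 87 thresholded members, 58 (66.7%) were found in every replicate, and of the 102 others 2 (1.96%) were. Both of the latter, between CkIalpha and Tis11 and between E(spl)mbeta-HLH and E(spl)malpha-BFM, were overlapped by the same replicate regions as a stronger, thresholded neighbour. Both lists come from the same ranking, so this contrast is a description.

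For the 173 members with a region in all 3 replicate lists, the highest rank was a median of 4.71 times the lowest (quartiles 2.30 and 11.9). It was under 2 times for 27 members and over 10 times for 55. The most even were the regions between Teh1 and CG46467 (ranks 124, 119 and 128), between COX7AL2 and CG31668 (2445, 2193 and 2418) and between bun and nub (898, 1066 and 998). The least even lay between noc and CG33648 (26720, 253 and 302), between aop and CG10874 (505, 2420 and 28995) and between CG10479 and PVRAP (24755, 511 and 26361). In the first of these the low placement came from replicate 1 alone, although the region is in the thresholded list with a pooled signal of 105.4.

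**Figure D2:**
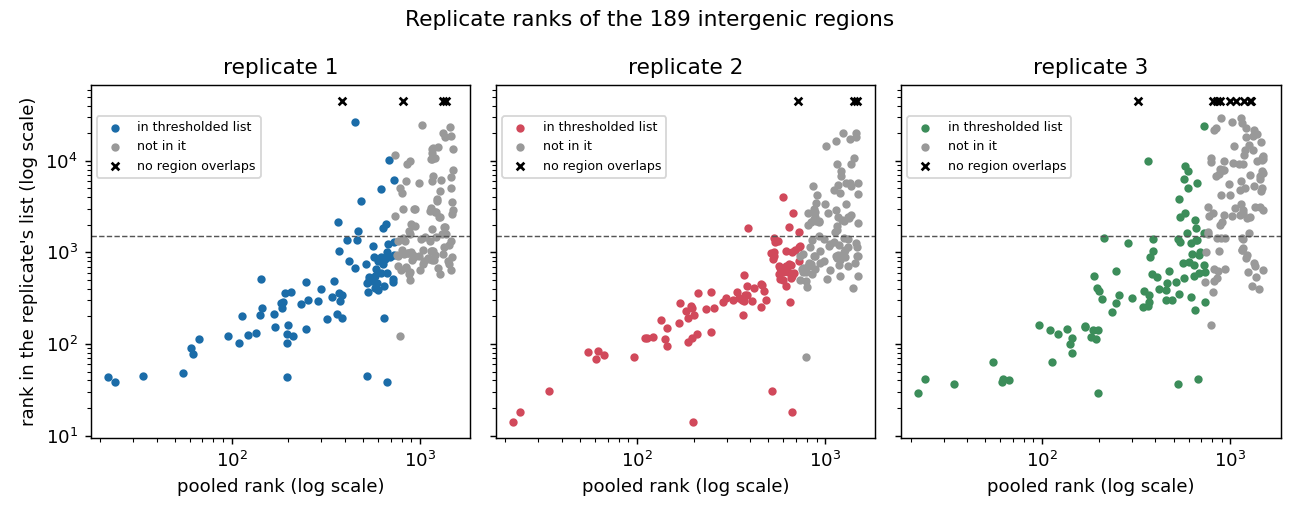
Rank of the region overlapping each of the 189 intergenic regions in the list of replicate 1, 2 or 3 (vertical, log scale) against its rank in the pooled list (horizontal, log scale), in colour for the 87 thresholded members. Dashed lines mark rank 1500, and crosses at the top mark members that no region of that replicate overlaps (4, 3 and 9); the scatter widens for the members outside the thresholded list.

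The space open to such regions, that is, bases over 500 bp from a coding start and outside coding genes, covered 39943929 bp or 29.9% of the sequenced arms, against the 12.6% of strong regions found in it. Members lay on all arms. They were 39 of the 281 strong regions on 2L, 26 of 258 on 2R and 48 of 305 on 3L. On 3R they were 49 of 357, on X 23 of 292 and on chromosome 4 they were 4 of 7. The strongest member on chromosome 4 lay between Asator and zfh2 (signal 116.2). Within the space they lay closer to coding starts than its bases do. The median distance was 3934 bp (quartiles 1411 and 7961 bp), against 8465 bp (3288 and 22168 bp) for every base of the space. It was 5344 bp for the 5471 intergenic regions ranked 1501 to 30000 and 4611 bp for the 188 of them ranked 1501 to 3000, nearer to that of the members. Members at 501 to 1000 bp numbered 31, those at 1001 to 5000 bp 85, those at 5001 to 20000 bp 63 and those farther away 10.

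The median distance in each replicate's own 1500 strongest regions was 4340, 3718 and 3794 bp in replicates 1, 2 and 3 (3951 bp ± 340, SD, n = 3). All 3 values were below the median of the space. The replicate lists held 172, 176 and 171 intergenic regions (173 ± 2.65, SD, n = 3). Of these, 73.8%, 78.4% and 55.6% overlapped one of the 1500 strongest pooled regions.

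The farthest members lay 59464 bp from a start, between Cyp12e1 and hth, a homeobox gene (signal 55.02; replicate ranks 1899, 17331 and 705), 57994 bp away between Or67d and CG12362 (56.05; 6133, 5711 and 431) and 55850 bp away between vvl and Prat2. Of these only the vvl region ranked within the 1500 strongest in every replicate. The nearest members allowed by the rule lay 505 bp from CG10479, 517 bp from AdamTS-B and 521 bp from Sox21b. Just within the limit and outside coding genes were regions 500 bp from CG1907, 494 bp from CG32447 and 492 bp from spir, with signals of 193.4, 60.08 and 62.24.

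**Figure D3:**
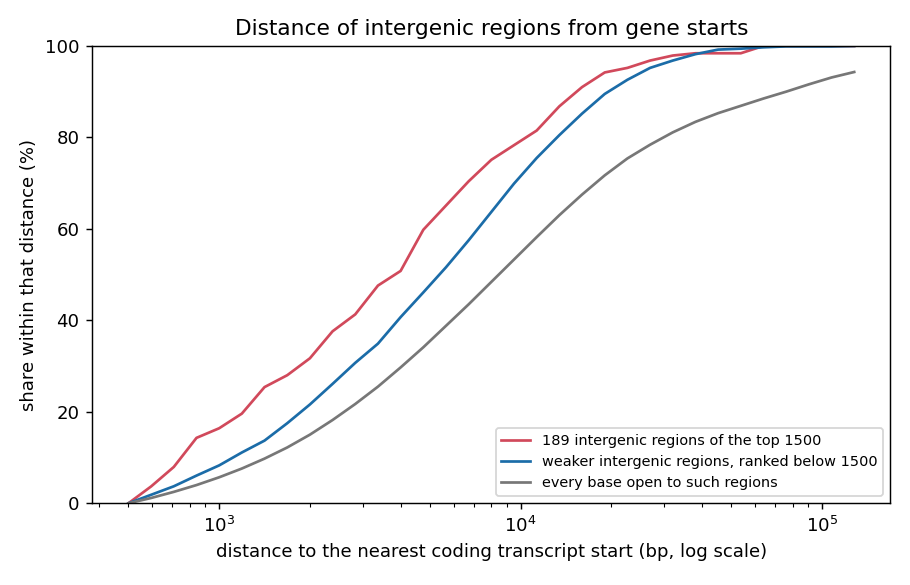
Cumulative share (vertical, %) of intergenic regions within a given distance of the nearest coding transcript start (horizontal, bp, log scale). The line of the 189 members lies above that of the 5471 weaker intergenic regions at all but the longest distances, and both lie above the bases of the space; 16.4%, 8.28% and 5.68% of them lie within 1000 bp.

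The 189 members occupied 146 spaces between coding genes, with 276 genes next to them. These are 1.98% of the 13945 coding genes of the arms. The spaces were smaller than those in which an average base lies, with a median of 14346 bp over members and 27466 bp over bases. Flanking genes were divergent for 62 members (32.8%, Wilson 95% interval 26.5 to 39.8%), tandem for 87 (46.0%, 39.1 to 53.1%) and convergent for 40 (21.2%, 15.9 to 27.5%). The same shares were 23.8%, 49.6% and 21.9% of the bases of the space, and 28.5%, 50.7% and 20.8% of the weaker intergenic regions. The interval of the divergent share lies above the share of bases and includes that of the weaker regions. Within 500 bp of the 3′ end of a flanking gene lay 14 members (7.41%, 4.46 to 12.0%), against 4.96% of bases.

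Of the 146 spaces, 31 held more than 1 member, with 74 members in all. In 25 of them the members had summits over 500 bp apart, and the others held only neighbouring calls. Between Cyt-c1L and eEF1gamma, a translation elongation factor, lay 3 members. The first 2 by signal were within 5000 bp of mir-279 and mir-996, microRNAs that limit the formation of certain olfactory neurons. The strongest, 113 bp from the start of lncRNA:CR31044 (3R 29214449), had a pooled signal of 224.7 and replicate ranks of 132, 182 and 147. The second lay inside that transcript, 42 bp from the start of mir-279 (3R 29215543), with a signal of 115.9 and ranks of 340, 427 and 1417. The last, outside it, had 53.70 and ranks of 23511, 771 and 3134. Replicate 1 thus placed the first 2 high and the last among the weakest regions of its list.

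In the Enhancer of split complex, the cluster of Notch-activated repressors, 3 members lay in the 4869 bp between E(spl)mbeta-HLH and E(spl)malpha-BFM, a Bearded-family gene. Their pooled signals were 109.3, 58.47 and 54.16. The first ranked 814, 408 and 403 in the replicates and was overlapped by the same replicate regions as the last, 201 bp away. The second ranked 1025 and 916 in replicates 1 and 2 and had no region in replicate 3.

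**Figure D4:**
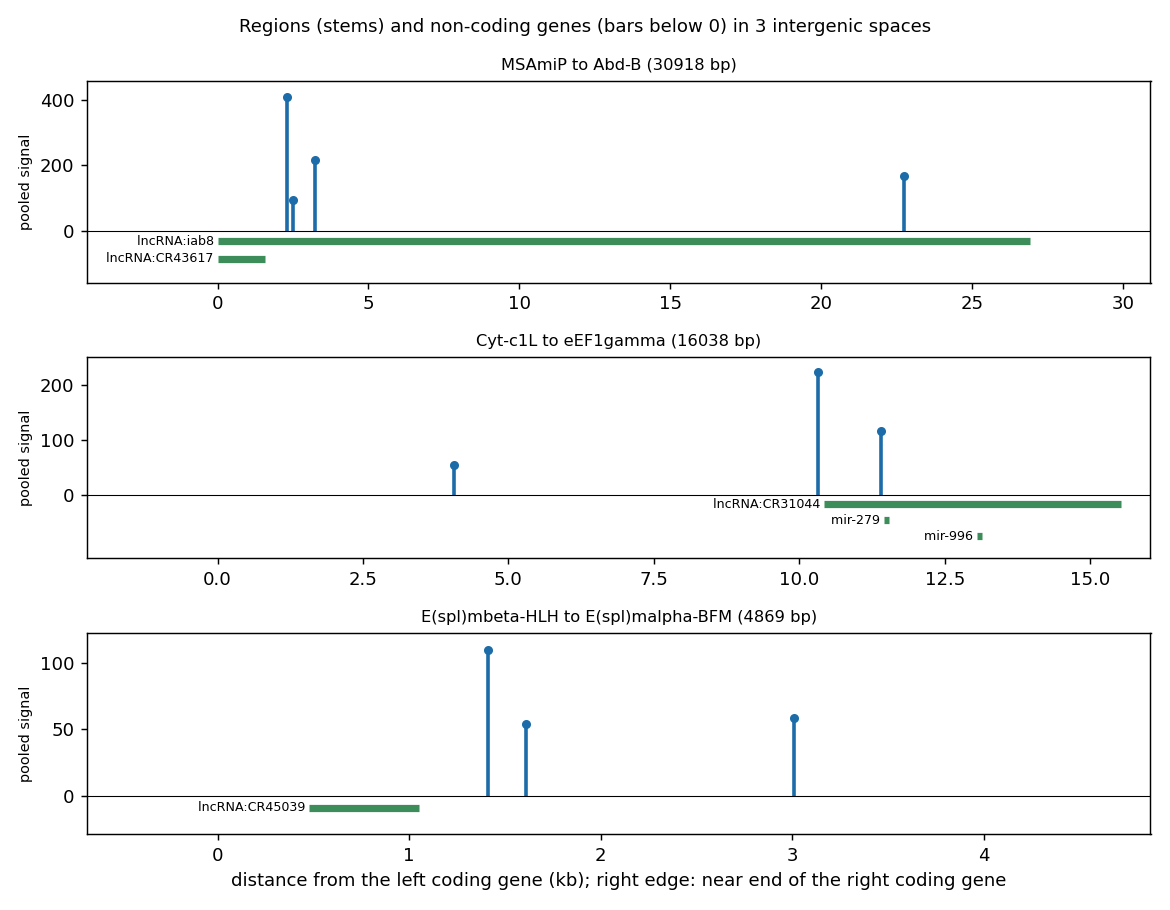
Pooled signal (vertical, authors' scale) of the members in 3 intergenic spaces against distance from the left coding gene (horizontal, kb), with annotated non-coding genes as green bars under the axis. The 4 members between MSAmiP and Abd-B, including the highest at 409.8, stand over lncRNA:iab8, and the second of the 3 between Cyt-c1L and eEF1gamma lies next to mir-279.

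Non-coding genes were not used to choose the members. Of the 189 summits, 33 (17.5%, Wilson 95% interval 12.7 to 23.5%) lay inside 26 annotated non-coding genes, against 7.20% of the bases of the space and 10.2% of the weaker intergenic regions (9.43 to 11.0%). Among intergenic regions ranked 1501 to 3000 the share was 16.5% (11.9 to 22.5%), close to that of the members. All 26 are annotated as ncRNA and named as long non-coding RNAs. None of the summits lay inside a tRNA, snoRNA, snRNA or rRNA gene or a pseudogene, and 3 lay in copies of the INE-1 transposable element. Start sites of non-coding genes lay within 500 bp of 24 members (12.7%), and 42 members lay inside a non-coding gene, near such a start or both. No share of bases or of weaker regions is given for these counts or for the INE-1 copies. They are therefore descriptions and cannot be called high or low.

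Apart from the 4 in lncRNA:iab8, the strongest members in non-coding genes were spread over X, 2L, 3L and 3R. Inside lncRNA:Vinr, between CG4004 and Paics, a neighbouring pair had signals of 261.9 and 180.7, and lncRNA:CR44619 beside it held another with 179.4. The summit in lncRNA:CR31840, a transcript of 378 bp between NimC3 and hll, lay 12 bp from its start (signal 198.0; 2L 14024087). lncRNA:CR44363 held a member with a signal of 141.2 and replicate ranks of 398, 316 and 316, and lncRNA:CR44357 one with 101.0 and ranks of 3634, 304 and 303. A member of signal 83.35 lay in lncRNA:Hsromega, the heat-inducible transcript of the omega speckles, and was chosen for naming after its value was seen.

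A microRNA gene began within 5000 bp of 15 members (7.94%, 4.87 to 12.7%), against 1.22% of the bases of the space, 1.92% (1.59 to 2.32%) of all weaker intergenic regions and 3.19% (1.47 to 6.79%) of those ranked 1501 to 3000. The last interval overlaps that of the members, some of which share a space and so a microRNA gene. Besides mir-279, some of the closest were mir-275 at 209 bp (signal 53.22), mir-2c at 355 bp (67.96), mir-282 at 693 bp (87.17) and mir-375 at 706 bp (62.60). Each of these 4 members fell outside the 1500 strongest regions of at least 1 replicate. Their replicate ranks were 3536, 5782 and 7303 at mir-275, 1711, 921 and 7249 at mir-2c, 466, 616 and 5028 at mir-282, and 1409, 14451 and 2504 at mir-375.

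Both strands were searched for motifs up to 100 bp from each summit. Windows of the same width, placed 1000 bp to the left and right, served as flanks. CCAATTGG was present in 12 of the 189 members (6.35%, Wilson 95% interval 3.67 to 10.8%), against 8.47% of all 1500 and 0.950% of all 30000 regions. It was present in 3 of the 378 flanking windows (0.794%, 0.270 to 2.31%), in 29 of the 5471 weaker intergenic regions (0.530%, 0.369 to 0.760%) and in 0.377% of tiles of 201 bp over the space. The member interval includes the share of all 1500. It lies above the shares of all 30000 regions, the flanks, the weaker intergenic regions and the tiles. The member interval overlaps that of the next intergenic regions, ranked 1501 to 3000, of which 4 of 188 held the palindrome (2.13%, 0.830 to 5.34%). By pooled rank, the palindrome was in 2 of the 8 members of the top 100, 4 of 43 at ranks 101 to 500, 4 of 75 at 501 to 1000 and 2 of 63 at 1001 to 1500.

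The 12 members held 14 copies of the palindrome, a median of 33 bp from the summit and from 0 to 81 bp away. For 177 members no copy was found in this window, the region between l(3)L1231 and CG3505 among them. The median pooled signal was 108 in members with a copy and 70.5 in those without. Of the 12, 8 were in the thresholded list and 7 were found in every replicate. Those in the 10 strongest with a copy not yet described lay between AP-1gamma and fend (128.2; replicate ranks 323, 369 and 251), between CG16964 and CG16965 (87.82; 654, 613 and 1642), between bun and nub, a POU-domain gene (78.47; 898, 1066 and 998), between CG14316 and CG14315 (70.46; no region in replicate 1, then 709 and 371) and between CG3092 and yip3 (66.81; 998, 2207 and 2135).

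The start-proximal regions held the palindrome in 10.3% (Wilson 95% interval 8.37 to 12.7%) and the regions in coding genes in 6.64% (4.86 to 9.02%), and both intervals overlap that of the members. In each replicate's own 1500 strongest regions it was in 5.23%, 6.25% and 5.26% of intergenic regions and in 7.33%, 8.55% and 9.71% of start-proximal ones. The intergenic share was lower in 3 of 3 replicates, with differences of -2.10, -2.30 and -4.44 percentage points and a mean of -2.95 ± 1.30 points (SD, n = 3). An exact two-sided sign-flip permutation test gave p = 0.25, the smallest p that 3 replicates allow, so the design cannot reach 0.05. The mean difference was -1.738 points when 50 bp on either side were searched and -5.134 points with 200 bp. The 3 lists hold many of the same regions.

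CCAATAAG was in 6 members (3.17%, 1.46 to 6.75%) and 2 flanking windows (0.529%, 0.145 to 1.91%), against 4.77% of start-proximal regions and 0.737% of all 30000. The 3 strongest were those of Set2, caps (12 bp from the summit) and CG15550 (67 bp), printed above. Only the member between CG3092 and yip3 held both motifs, so 17 members (8.99%) held one or the other. CAATCAGA was in 4 members (2.12%, 0.826 to 5.31%), against 1.06% of flanks (0.412 to 2.69%) and 1.00% of all 30000. It was in 6.10% (4.60 to 8.04%) of start-proximal regions and 4.13% of regions in coding genes. The member interval overlaps those of the flanks and of the start-proximal regions. The member between l(3)L1231 and CG3505 held 3 copies of it, 41, 32 and 50 bp from the summit, the last of which runs past the end of the printed stretch, and the others lay next to CkIalpha, Teh1 and mamo. CAATTG, the core contained in the palindrome, was in 20 members (10.6%, 6.96 to 15.8%), among them the 12 with the palindrome itself. It was in 7.14% of flanks (4.96 to 10.2%), and these intervals overlap.

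TATCGATA, the element of the promoter factor DREF, was in 1 member (0.529%, 0.0935 to 2.94%). It was in 4.24% of start-proximal regions (3.02 to 5.93%), and these intervals do not overlap. In the members' flanks (0.529%) and in regions inside coding genes (0.539%) the share was close to that of the members. GGTCACAC, the element of the promoter factor M1BP, was in 1.06% of members and 3.45% of start-proximal regions, with overlapping intervals. Its share was 0.265% in the flanks and 0.359% in regions inside coding genes. GAGAGAG, a repeat read by GAGA factor, was in 2.65% (1.14 to 6.04%) of members and 2.91% of their flanks. It was in 6.50% of start-proximal regions and 8.44% of regions in coding genes.

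CAGCTG, the E-box of proneural factors, had a lower share in members than in other windows. It was in 5 members (2.65%, 1.14 to 6.04%), against 30 of the 378 flanking windows (7.94%, 5.62 to 11.1%), 13.1% (10.9 to 15.7%) of start-proximal regions and 11.6% of all 30000. The member interval overlaps that of the flanks and not that of the start-proximal regions. The Su(H) motif GTGGGAA, the Zelda motif CAGGTAG, the GATA motif AGATAA, the TATA box TATAAA, the repeat CACACACA and the tract AAAAAAAA were in 2.12%, 2.65%, 11.6%, 21.7%, 5.29% and 11.1% of members and in 3.17%, 1.06%, 8.99%, 24.3%, 5.82% and 13.2% of flanks. All 6 pairs of intervals overlap. The median GC content of the members was 39.8%, against 40.8% in both other classes.

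**Figure D5:**
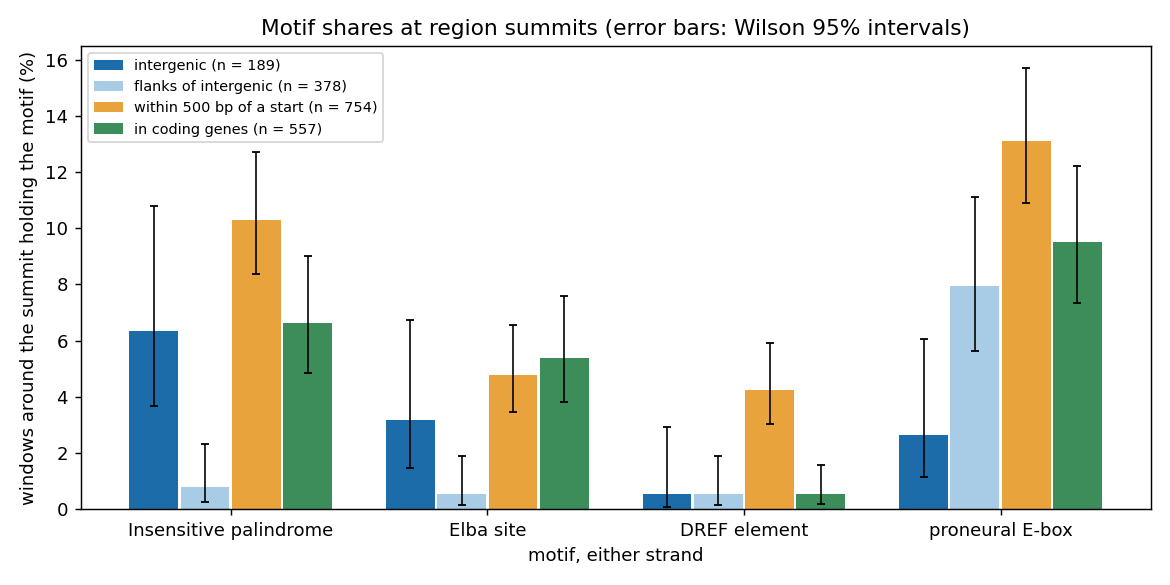
Share of windows of 201 bp around the summit (vertical, %) that hold the Insensitive palindrome, the Elba site, the DREF element or the proneural E-box on either strand, with Wilson 95% intervals. In the 189 intergenic regions the palindrome stands at 6.35%, above their own flanks at 0.794%, while the E-box stands at 2.65%, with the flanks at 7.94%.

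Developmental genes flanked members at a share near that of weaker intergenic regions. Of 220 genes in 8 lists of regulators and signalling genes, 36 (16.4%) were next to a member, against 1.98% of all coding genes. Counted by region, 35 members (18.5%, Wilson 95% interval 13.6 to 24.7%) lay next to a listed gene. The share was 20.4% of the 5471 weaker intergenic regions (19.4 to 21.5%), which lies within the member interval, and 10.4% of the bases of the space. The lists were drawn up with earlier results of these data known.

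Among Hox genes 2 of 8, Abd-B and Scr, were next to members, 5 in all. Of 54 other homeobox genes 8 were (Lim1, NK7.1, ara, caup, ftz, hth, toy and tup), and after those at ftz the strongest of the members counted here lay between CG1789 and Lim1, 34903 bp from Lim1 (signal 105.2; replicate ranks 680, 451 and 393). Of 25 proneural and neural precursor genes 5 were (D, Sox21b, SoxN, nerfin-1 and pros). The member next to SoxN, a Sox factor of the early neuroectoderm, lay 16459 bp from it (84.68; 4958, 430 and 327). The one between CG5214 and pros, a homeodomain factor of neural differentiation, lay 67135 bp from pros (80.68; 2030, 529 and 1351). Both fell outside the 1500 strongest regions of replicate 1.

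The pair-rule gene ftz was counted above with the homeobox genes, and the POU-domain gene vvl was in none of the lists. Of 21 other segmentation genes 7 were next to a member (btd, croc, drm, hry, nub, slp1 and slp2). The strongest of these lay between the forkhead gene croc and Neu2, 7406 bp from croc (121.8; replicate ranks 2125, 205 and 257). The next lay between nej and the head gap gene btd, 6476 bp from btd (89.85; 1188, 581 and 525), and all replicates placed it within their 1500 strongest. Another lay between the forkhead genes slp1 and slp2, 4319 bp from slp2 (86.64; 393, 4058 and 785). Of 23 genes of the Notch pathway and its targets 7 were (Brd, E(spl)m3-HLH, E(spl)m4-BFM, E(spl)malpha-BFM, E(spl)mbeta-HLH, Su(H) and Tom). The members after that of the E(spl) complex were between the Bearded-family genes Tom and Brd (74.96; 2502, 922 and 478) and between Su(H), the DNA-binding factor of the pathway, and ck, 646 bp from Su(H) (73.40; 947, 659 and 1681). Neither of these was in the thresholded list.

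Of 30 T-box, GATA and nuclear receptor genes 4 were next to a member (Doc1, Doc2, Hr51 and mid). The strongest was next to the T-box gene mid, 9264 bp from it (70.48; replicate ranks 1051, 2004 and 2704). It was followed by one between Doc2 and Doc1, 6658 bp from Doc2 (58.59; 13744, 2433 and 1402), and one 603 bp from the nuclear receptor gene Hr51 (53.57; 1338, 18378 and 4629). Of 28 signalling ligands only Wnt4 and wg were, through 1 member between them (54.87; 18273, 5303 and 536), and of 31 neuronal adhesion and guidance genes only caps was. None of these members except the one at caps was found in every replicate.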

How the data were processed

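ChIP-seq regions of GFP-tagged Insensitive were analysed in 3 biological replicates of embryos. Text lists deposited with the samples name a control library as input to the calling, and it was not analysed here. The authors deposited 30000 regions, peaks with background, for each replicate and for their pool, and a thresholded list. The deposited signal value is the caller's own, and the summit was read from the deposited offset in bp (another column), which was off centre in 12 of the 189 members (median width 416 bp). The caller, its settings, the aligner and the depth are not stated in the labels or headers. The dm3 lists were not used.

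Summits were placed on dm6 with Ensembl release 115 annotation (BDGP 6.54) and RefSeq release 6 sequence, using Python 3.11.15, NumPy 2.4.6, SciPy 1.17.1 and matplotlib 3.10.9. Members were named by flanking coding genes. The rule named the 25 strongest, the 10 strongest in non-coding genes, the 10 strongest with CCAATTGG, extremes of distance and rank spread (3 each), edges (3 each) and up to 3 strongest per gene list. The 14 motifs were sought in windows of 201 bp. Intervals are Wilson 95% and cover counting error only, and neighbouring calls share sequence. The scripts were tested on simulated data. Separate embryo collections are not stated for the replicates, so their spread may be technical. Members, lists, motifs and tests were chosen with earlier results of these data known. Alternatives varied the number of regions, distance, window, overlap, annotation and replicates. The regions of 1 intergenic space are counted but not reported here by name.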

Additional observations from a re-analysis of the deposited data

How the results depend on the processing

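Of 50 alternative values none reversed, but counts, shares and distances have no direction and could only move. Only the difference tested by permutation could reverse. Its side of the threshold was fixed, because 3 replicates allow no p below 0.25 in the sign-flip permutation test. In 42 a share or distance stayed within its spread, a count stayed within 1.5 times, or, for the difference tested by permutation, the direction and the side of the threshold were kept. The 189 members became 87 with the thresholded list only. The share found in every replicate (31.75%) was 23.28% with the 1000 strongest regions of a replicate and 46.56% with 3000, and from 35.98% to 47.62% when 1 replicate was left out (35.98% without replicate 2, 43.92% without replicate 1, 47.62% without replicate 3). The direction of these changes was fixed. Fewer replicates or more regions can only raise this share, and fewer regions can only lower it. The share at non-coding genes (17.46%) was 12.70% when the summit had to lie within 500 bp of a non-coding start. The median distance of 3934 bp was 4319 bp with 2000 strongest regions and 4536 bp with the thresholded list only. The share with CCAATTGG (6.349%) was 9.639% to 10.29% among members found in both remaining replicates when 1 was left out, and the difference from start-proximal regions (-2.948 points) was -3.370 to -2.200. That difference was -1.738 points when 50 bp on either side were searched and -5.134 with 200 bp. RefSeq annotation, an alternative chosen after seeing the data, gave the same 189 members. No paired analysis was possible because there is 1 group, so the replicate numbers pair no groups; the difference above is taken between classes of region within each replicate. Depth is unknown, so limits from depth could not be computed.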
